A study of Homo sapiens with 12 samples.

Results

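ATM, ATR and the checkpoint kinases CHEK1 and CHEK2 were examined together with 6 genes that switch them on or carry their signal: ATRIP, RAD17, RAD1, HUS1, CLSPN and TOPBP1. The 10 genes were taken by name, and every array probe annotated to 1 of them and to no other gene was reported, whatever its value. On AFFX (Affymetrix HG-U133 Plus 2.0) 9 of the 10 genes, out of 19777 genes with such a probe set, had 30 probe sets. On ABI (Applied Biosystems Human Genome Survey) 8 of the 10, out of 17192, had 11 probes. ATRIP has no value here, because its 3 AFFX probe sets and 2 ABI probes are also annotated to TREX1. CHEK1 was read on AFFX only, since its 2 ABI probes are also annotated to STT3A.

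A2780, an established human ovarian carcinoma line, was plated for 24 hours and then left untreated or exposed to 3 µM of a cell cycle inhibitor for 6 hours. The inhibitor is not named in the labels. Detached cells were not part of the samples. RNA of the biological replicates was pooled into 1 sample per condition, and each pool was divided over 3 arrays of each platform, which gives 12 arrays in 4 groups of 3. The spread between arrays of a group is therefore technical, and the p-values below measure 2 RNA pools against that spread, not against the variation between cultures. No recombinant allele or transfection is given for the line in either group.

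ATM and ATR are large protein kinases that respond to damaged DNA. ATM is activated at double-strand breaks and acts on CHEK2, whereas ATR, brought to single-stranded DNA by its partner ATRIP, acts on CHEK1. Full ATR activity needs a ring of RAD9A, HUS1 and RAD1 (the 9-1-1 clamp), a loader that places the ring on DNA and contains RAD17 with the small RFC subunits, and TOPBP1, which binds the clamp and stimulates the kinase. CLSPN (Claspin) then holds CHEK1 near ATR. Once active, CHEK1 and CHEK2 restrain the CDC25 phosphatases and delay the cell cycle. Much of this control acts on the proteins and by phosphorylation, which arrays of mRNA do not read.

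In the treated cells the mRNAs of the clamp loader and activator genes RAD17 and TOPBP1 and of the clamp gene RAD1 fell on both platforms, RAD17 by 2.30 to 2.61-fold on AFFX and 3.26 to 3.56-fold on ABI. The apical kinases ATM and ATR had no probe past the threshold on either platform with the values as deposited, nor had CHEK2 and HUS1. CHEK1 fell at 1 of its 4 AFFX probe sets. CLSPN had probe sets of opposite sign, none of which reached 1.5-fold. No probe of the group was called higher. A call needed an adjusted p under 0.05 in limma, with Benjamini-Hochberg adjustment over all probes of the platform, and a change of at least 1.5-fold. In these bulk samples, fewer cells that express a gene and less of its RNA per cell cannot be told apart.

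**Figure D1:**
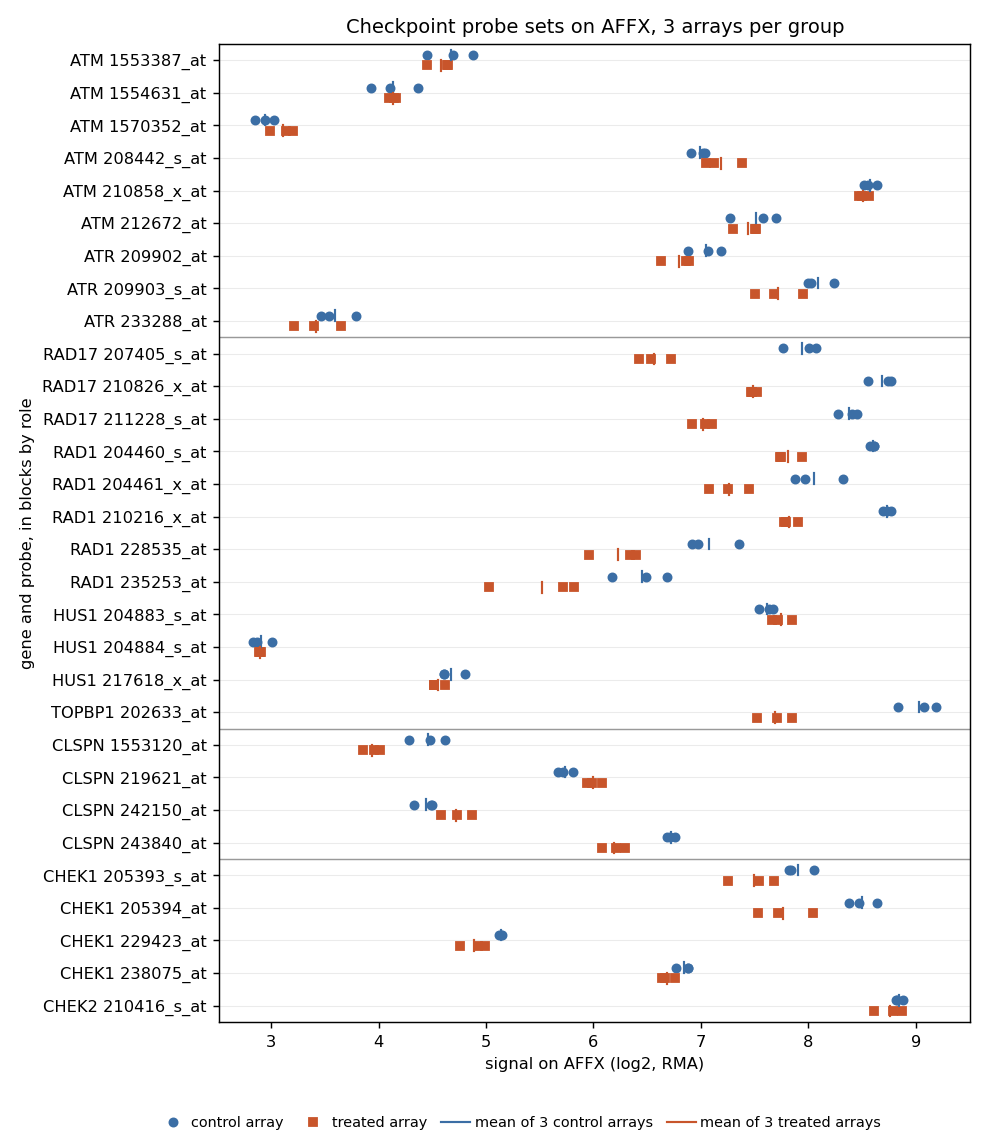
Signal of each of the 30 AFFX probe sets on every array. The x axis is the log2 signal, the y axis lists gene and probe set in blocks by role (apical kinases; clamp, loader and activator; mediator; effector kinases), circles are the 3 control arrays, squares the 3 treated arrays and short vertical lines the group means. The circles and squares of RAD17, RAD1 and TOPBP1 lie apart at all 9 of their probe sets, while those of ATM overlap at 5 of 6.

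On AFFX 10 of the 30 probe sets were called lower and 0 higher (limma; the equal-variance t-test also called 0 higher, and 2, both of CLSPN, were higher at an unadjusted p under 0.05). Over all 54613 AFFX probe sets tested, 8.95% were lower and 1.75% higher. On ABI 4 of the 11 probes were called lower and 0 higher by limma and by the t-test, with 0 higher at an unadjusted p under 0.05 as well. There 10.1% of all 33096 probes were lower and 7.71% higher. The median log2 change of the 30 AFFX probe sets was -0.25, beside 0.12 for all probe sets, and that of the 11 ABI probes was -0.46, beside 0.16 for all probes. By role, the lower calls fell on the clamp, loader and activator genes at 9 of 12 AFFX probe sets and 4 of 6 ABI probes, on the apical kinases at 0 of 9 and 0 of 3, on the effector kinases at 1 of 5 and 0 of 1, and on CLSPN at 0 of 4 and 0 of 1. At an unadjusted p under 0.05 the apical kinases had 2 lower probes on each platform, and the t-test called none of them. Probes of 1 gene are repeated readings of it and not separate observations. The members were chosen with earlier results of these data known, so their counts beside those of all probes are no test. How many of all probes have groups of 3 arrays that do not overlap was not counted. Groups that lie apart are therefore given as description only, in the text and the figures. The ABI count rests on few arrays: it was 2 when control replicate 1, control replicate 2, treated replicate 2 or treated replicate 3 was left out. The AFFX count was 10 or 11 without any single array.

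Array quality was summarised over control and treated arrays together, so it is not compared between them here. The paper found gene rankings less consistent among the ABI control arrays than among the treated ones. Pearson correlations between arrays of a group were 0.994 to 0.997 on AFFX and 0.969 to 0.973 on ABI across probes, and the median SD within groups was 0.12 log2 on AFFX and 0.36 on ABI, so a small change is harder to detect on ABI. The scale is less certain than the spread. The 18 hybridisation control probe sets on AFFX, bacterial transcripts added to each sample, were 0.42 log2 higher on the treated arrays. Centring on them moved the median of all probe sets from 0.12 to -0.30 and the share of calls that were lower from 83.6% to 99.2%. Centring on ribosomal protein genes moved the medians to -0.18 on AFFX and -0.48 on ABI, and that share to 98.6% and from 56.7% to 97.8%. Centring on array medians left the shares at 90.8% and 52%. Of the lineage markers, the transcription factor PAX8 had a mean AFFX signal of 7.74, brighter than 82.7% of probe sets, whereas EPCAM stood at 4.22, the same as the median of 16 probe sets for leukocyte markers, genes that a pure line should not express. The PAX8 value is of 1 of its 8 probe sets, and its ABI probe read -0.81, brighter than 38.6% of probes. KRT8 and KRT18 were brighter than 64.1% and 60.8% of AFFX probe sets, and KRT19, CDH1, WT1 and MUC16 than 36.8%, 27.9%, 15.8% and 24.6%. No epithelial marker of 8 and no leukocyte marker of 8 measured was called on AFFX, and the fibroblast and endothelial list had 2 of 9 lower, COL1A2 and COL3A1. On ABI 1 of 9 leukocyte markers (NKG7) and 1 of 9 fibroblast and endothelial markers (COL1A1) were higher, and of 7 epithelial markers KRT18 was lower and MUC16 higher. COL1A2 and COL3A1 were not called on ABI (0.26 and 0.21), where they were brighter than 91.4% and 96.4% of probes. Their AFFX calls are each of 1 probe set, out of 3 for COL1A2 and 5 for COL3A1. The log2 of the summed signal went from 7.91 in control to 8.18 in treated for the leukocyte list on AFFX and from 3.81 to 4.51 on ABI, from 8.90 to 8.74 and 8.04 to 8.27 for the fibroblast and endothelial list, and from 8.73 to 8.90 and 2.93 to 2.89 for the epithelial list. Their part in the results below was not tested. The reference genes ACTB and GUSB were not called on either platform, with log2 changes between -0.03 and 0.24. GUSB passed on AFFX without control replicate 3 (0.62) or treated replicate 2 (0.59), when the probe set of lowest p could be another.

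RAD17, the subunit that gives the checkpoint clamp loader its specificity, had the largest changes of the group on both platforms. Its AFFX probe set 211228_s_at read 8.45, 8.28 and 8.40 log2 on the control arrays and 7.10, 7.04 and 6.91 on the treated arrays. Every treated array lay more than 1 log2 unit below every control array. The log2 change was -1.36 ± 0.09 (SE over 3 arrays per group, limma adjusted p = 6.76e-07). The other probe sets changed by -1.38 ± 0.11 (207405_s_at) and -1.20 ± 0.09 (210826_x_at). On ABI the probe 203873 read 5.14, 5.05 and 4.99 on the log2 scale in control and 3.56, 3.23 and 3.27 in treated arrays, a change of -1.71 ± 0.14 (limma adjusted p = 0.0017). Probe 109998 read 3.26, 3.22 and 2.99 against 1.95, 0.94 and 1.08, a change of -1.83 ± 0.29 (limma adjusted p = 0.013). Its treated values spread over about 1 log2 unit, with treated replicate 1 the highest, and without control replicate 2 the adjusted p was 0.053 at a change of -1.80. Groups did not overlap at any of the 5 RAD17 probes. RefSeq lists pseudogene copies of RAD17, and how much of the signal they give was not tested.

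TOPBP1, the scaffold that stimulates ATR, had 1 probe set on AFFX. It read 9.19, 9.07 and 8.84 in control and 7.85, 7.71 and 7.52 in treated arrays, a log2 change of -1.34 ± 0.11 or 2.53-fold (limma adjusted p = 5.52e-06). On ABI the values were 4.97, 4.83 and 4.61 against 4.08, 3.90 and 3.86, a change of -0.86 ± 0.15 or 1.81-fold (limma adjusted p = 0.016). The groups were apart on both platforms. The ABI fold was the smaller one, but the difference between the platforms, 0.48 ± 0.19 log2, did not pass the test over the shared genes (limma adjusted p = 0.13). The ABI call was lost without control replicate 1 (-0.77, adjusted p = 0.0503), control replicate 2 (-0.84, 0.065), treated replicate 2 (-0.83, 0.060) or treated replicate 3 (-0.81, 0.059).

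RAD1, a clamp subunit, fell at all 5 of its AFFX probe sets. The brightest, 210216_x_at, read 8.77, 8.73 and 8.70 in control and 7.77, 7.90 and 7.79 in treated arrays, a log2 change of -0.91 ± 0.08 or 1.88-fold (limma adjusted p = 7.54e-06). The other probe sets changed by -0.79 to -0.93, with limma adjusted p between 4.01e-05 and 0.0034. The dimmest, 235253_at, scattered most, with treated values of 5.82, 5.71 and 5.03. By the t-test, 235253_at and 228535_at missed the threshold (adjusted p = 0.092 and 0.051). On ABI RAD1 read 4.77, 4.68 and 4.60 in control and 4.10, 3.87 and 3.95 in treated arrays, a change of -0.71 ± 0.13 or 1.64-fold (limma adjusted p = 0.018). No treated array reached a control array at any of the 6 probes. This ABI call passed only with treated replicate 1 left out or with all 6 arrays: leaving out any other single array gave changes of -0.66 to -0.75 with adjusted p of 0.053 to 0.067.

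HUS1, the other clamp subunit among these genes, was not called at any probe, and 0 of its 5 probes had an unadjusted p under 0.05. The brightest probe set, 204883_s_at, read 7.63, 7.67 and 7.55 in control and 7.85, 7.72 and 7.66 in treated arrays, a log2 change of 0.13 with a 95% interval of -0.06 to 0.32. The groups overlapped there and at both other probe sets, of which 204884_s_at lay at 2.90, among the dimmest on the array. On ABI probe 146824 gave -0.26 (95% interval -0.79 to 0.27). Probe 116432 read 1.54 on control replicate 1 and -0.47 and -0.64 on the other control arrays, which left its change of -0.46 with an interval of -1.96 to 1.04. Centred on ribosomal protein genes, 146824 was called lower (-0.90, adjusted p = 0.031).

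**Figure D2:**
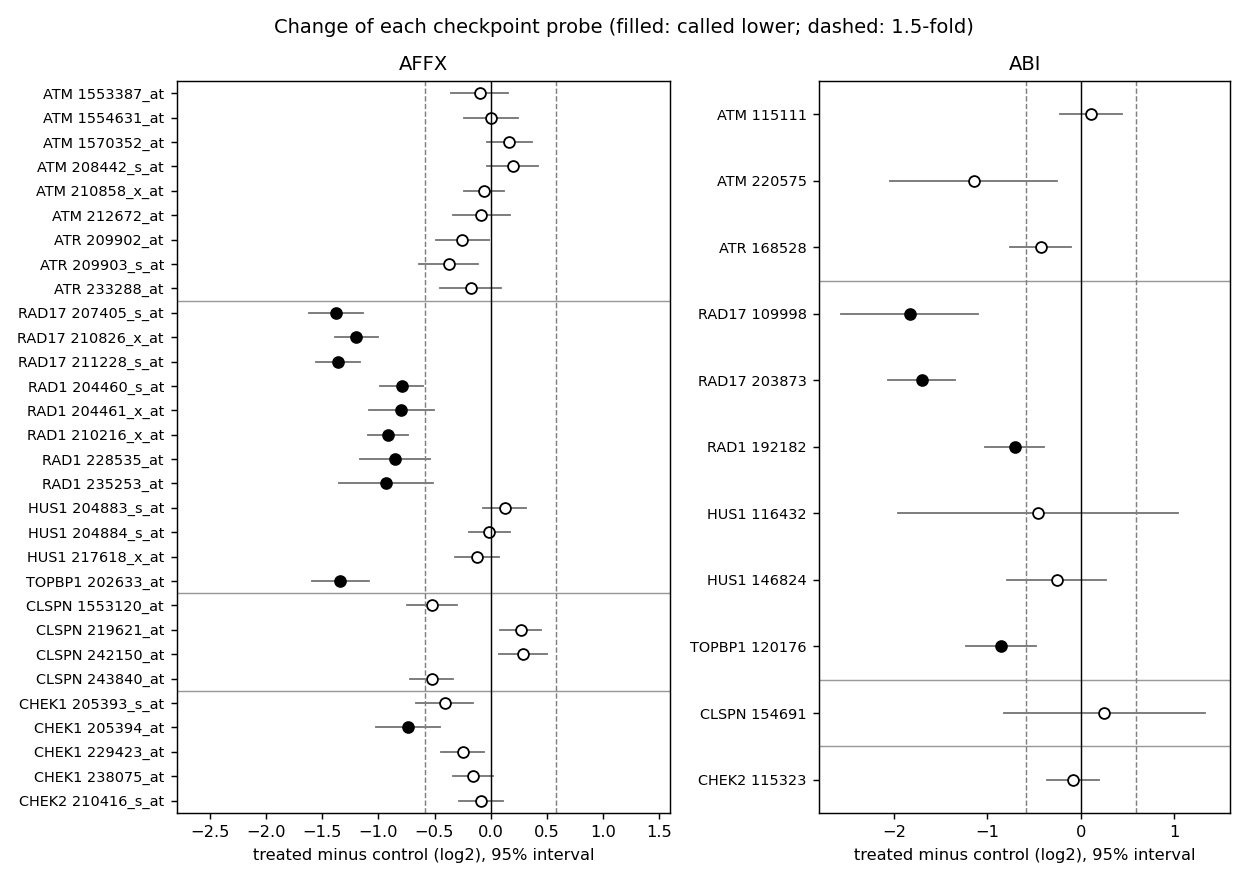
Log2 change, treated minus control, of each probe on AFFX (left) and ABI (right), in blocks by role. Points are limma estimates, lines their 95% intervals, filled points the probes called lower, and dashed lines mark 1.5-fold. The filled points sit at RAD17, RAD1 and TOPBP1 on both platforms and at 1 CHEK1 probe set on AFFX.

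ATM, the kinase of the double-strand break response, was called at 0 of 6 AFFX probe sets by limma or the t-test, and 0 had an unadjusted p under 0.05. The brightest, 210858_x_at, read 8.64, 8.56 and 8.52 in control and 8.47, 8.57 and 8.50 in treated arrays. Its log2 change of -0.06 had a 95% interval of -0.24 to 0.12, which lies inside the 1.5-fold limit. The interval of 212672_at was -0.34 to 0.18 around -0.08. Only at 208442_s_at did the groups not overlap, at 7.02, 7.04 and 6.91 against 7.12, 7.39 and 7.05, for a change of 0.20 (limma adjusted p = 0.15). The other 3 probe sets were dimmer, with group means of 2.94 to 4.68 and changes from -0.10 to 0.17. Under the centring on hybridisation controls, the ATM changes on AFFX were -0.52 to -0.22, none of them 1.5-fold and so not called. Over all alternatives (limma or t-test) the lowest adjusted p was 0.0066 at 210858_x_at, 0.032 at 212672_at and 0.032 at 1553387_at. These passed on p in at least 1 alternative, but not on fold. At 208442_s_at, 1554631_at and 1570352_at the lowest adjusted p was 0.068, 0.088 and 0.11.

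On ABI the ATM probe 115111 read 2.68, 2.40 and 2.41 in control and 2.59, 2.62 and 2.59 in treated arrays, a log2 change of 0.11 with a 95% interval of -0.22 to 0.44. The second probe, 220575, was dimmer than the median leukocyte marker probe (-1.06). Its values were -1.09, -2.06 and -1.03 in control and -2.56, -2.12 and -2.94 in treated arrays, a change of -1.15 ± 0.36 (limma adjusted p = 0.078) that passed without control replicate 2 (-1.48, adjusted p = 0.047), when centred on ribosomal protein genes (-1.79, 0.016) and after quantile normalization (-1.35, 0.043). The 2 ABI readings of ATM were not tested against each other. By the rule of 1 probe per gene with the lowest p, the dim pair of probes stood for ATM in the test between platforms. There the ABI change minus the AFFX change was -1.31 ± 0.39 log2 (limma adjusted p = 0.046), among 15.1% of 16186 shared genes whose changes differed between the platforms at an adjusted p under 0.05. With the brightest probes in their place the difference was 0.17 (adjusted p = 0.49). Without ABI control replicate 1, when the rule picked another ABI probe, it was 0.030, and without any single AFFX array, or without ABI control replicate 3, treated replicate 1 or treated replicate 3, its adjusted p was 0.066 to 0.16. No other member differed between the platforms with all arrays. RAD17 did when ABI treated replicate 1 was left out (-0.45, adjusted p = 0.041).

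ATR, the kinase of the replication checkpoint, had negative changes at all probes without a call. The AFFX probe set 209903_s_at read 8.24, 8.03 and 7.995 in control and 7.68, 7.95 and 7.50 in treated arrays. The treated arrays were all below the control arrays, replicate 2 by the least. The log2 change was -0.37 ± 0.12 (1.29-fold, limma adjusted p = 0.030), so the probe set passed on p but not on fold. The probe sets 209902_at and 233288_at gave -0.25 (adjusted p = 0.083) and -0.18 (adjusted p = 0.28), and their groups overlapped. On ABI ATR read 4.36, 4.19 and 4.17 against 3.78, 3.72 and 3.94, groups that did not overlap, for a change of -0.43 ± 0.13 (1.35-fold, limma adjusted p = 0.073). The platform difference was -0.06 ± 0.18. The lack of a call depends on the scale: centred on ribosomal protein genes, 209903_s_at was called lower (-0.67) and so was the ABI probe (-1.07), and centred on hybridisation controls all 3 AFFX probe sets were (-0.59 to -0.79).

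CHEK1, the effector kinase downstream of ATR, was called lower at 205394_at. Its values were 8.64, 8.47 and 8.38 in control and 7.71, 8.04 and 7.53 in treated arrays, a log2 change of -0.73 ± 0.13 or 1.66-fold (limma adjusted p = 0.0013). The second bright probe set, 205393_s_at, had 8.05, 7.84 and 7.82 against 7.55, 7.68 and 7.26, a change of -0.41 ± 0.12 (limma adjusted p = 0.018) below the fold limit. Treated replicate 2 stood highest among the treated arrays at both. The dimmer 229423_at and 238075_at changed by -0.25 (adjusted p = 0.043) and -0.16 (adjusted p = 0.15). Treated and control arrays were apart at all 4 probe sets, but barely at 238075_at, where the lowest control array read 6.77 and the highest treated array 6.76.

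CHEK2, the effector kinase downstream of ATM, was bright and had narrow intervals around 0. It read 8.88, 8.82 and 8.83 in control and 8.78, 8.87 and 8.61 in treated arrays on AFFX, a log2 change of -0.09 with a 95% interval of -0.28 to 0.11. On ABI it read 3.96, 3.99 and 3.90 against 3.88, 3.85 and 3.86, a change of -0.09 with an interval of -0.36 to 0.19. The platform difference was 0.00 ± 0.12. Centred on ribosomal protein genes the ABI probe was called lower (-0.73). RefSeq lists several CHEK2 pseudogenes, and their share of the signal was not tested.

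CLSPN, the mediator that brings CHEK1 to ATR, gave readings that depended on the probe set. The brightest, 243840_at, read 6.71, 6.76 and 6.68 in control and 6.21, 6.29 and 6.08 in treated arrays, a log2 change of -0.52 ± 0.09 (limma adjusted p = 0.00086). In contrast, 219621_at read 5.72, 5.67 and 5.81 against 6.08, 5.99 and 5.94, a change of 0.27 ± 0.08 (limma adjusted p = 0.027). At both the groups were apart, in opposite directions. The dimmer 1553120_at gave -0.52 and 242150_at 0.29. All 4 had an adjusted p under 0.05 and none reached 1.5-fold, although 1553120_at did without control replicate 3 (-0.61). The sign of the 2 positive values turned under the centrings on ribosomal protein genes and on hybridisation controls. The ABI probe was dim and scattered, from -1.25 to -0.27 in control and -0.86 to 0.37 in treated arrays.

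The disagreement within CLSPN was tested by comparing each AFFX probe set with the brightest of its gene in the same array, a difference that no centring changes. Of 21 such differences in 7 of the genes, 2 were called, where 17.1% of the 21314 differences over all genes were. Both were of CLSPN: relative to 243840_at, 219621_at was 0.79 ± 0.11 log2 higher after treatment (limma adjusted p = 0.00038) and 242150_at 0.81 ± 0.14 higher (limma adjusted p = 0.0013). The CHEK1 probe set 238075_at was 0.58 ± 0.16 higher than 205394_at, just under the fold limit (limma adjusted p = 0.019). It passed without control replicate 2 (0.61), control replicate 3 (0.60) or treated replicate 2 (0.74), and without the latter 229423_at passed as well (0.69), which made 4 calls. No difference was called within ATM, ATR, RAD17, RAD1 or HUS1. The differences from the brightest probe set were -0.18 and -0.16 log2 for RAD17 and -0.02 to 0.12 for RAD1.

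**Figure D3:**
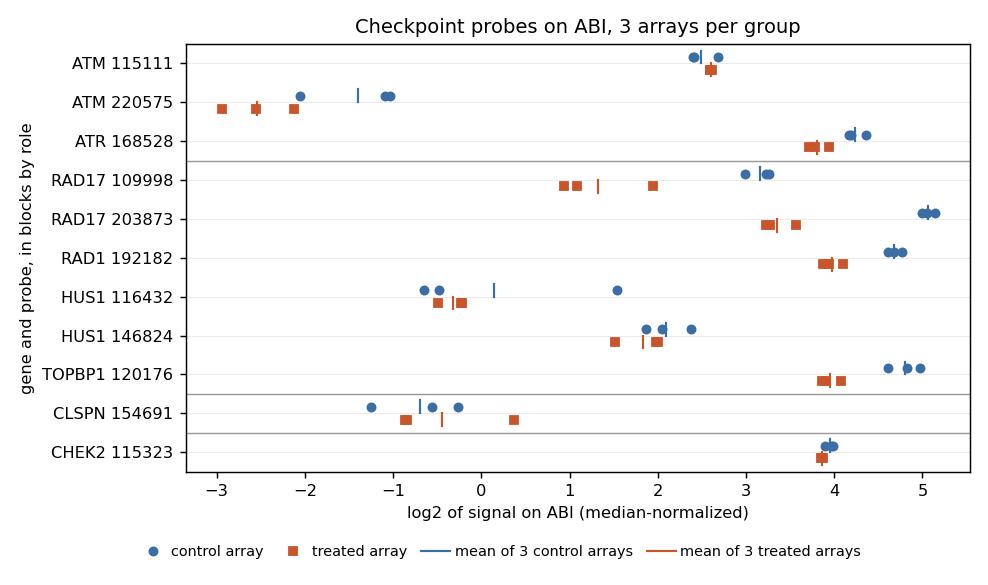
Log2 of the ABI signal of each of the 11 probes on every array, in the same blocks by role. Circles are the 3 control arrays, squares the 3 treated arrays and short vertical lines the group means. Groups are apart at both RAD17 probes, RAD1, TOPBP1, ATR, CHEK2 and ATM 220575, and control replicate 1 of HUS1 116432 stands at 1.54, far from the other arrays.

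The signal level of a probe set cannot be compared between genes, but dim readings can be set against genes that these cells should not express. Of the members' probes, 5 on AFFX and 1 on ABI lay below the median leukocyte marker probe of their platform (4.22 and -1.06). These were ATM 1554631_at and 1570352_at, ATR 233288_at, HUS1 204884_s_at and CLSPN 1553120_at on AFFX and ATM 220575 on ABI. None of them was called, and RAD17, RAD1 and TOPBP1 had none.

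The other genes of the pathway were read as 6 lists with 55 genes in all, with the probe of lowest t-test p standing for each gene. The lists were chosen with earlier results of these data known, so their counts beside those of all genes are no test. On AFFX 20 of the 53 genes measured were lower and 4 higher, where 14.2% of all genes were lower and 2.49% higher. On ABI 19 of 54 were lower and 1 higher, where 14.8% of all genes were lower and 6.31% higher. Of the genes lower, 14 were lower on both platforms, which read the same RNA pools. The share of all 16186 shared genes that were lower on both was not counted, so this number and those of single lists have no background. The median log2 change of the listed genes was -0.21 on AFFX and -0.37 on ABI, beside 0.16 and 0.09 for all genes. Without 1 of the ABI arrays the ABI count of lower genes was 13 to 17, and the count of higher genes was 0 without any single array but control replicate 1. The 1 higher gene with all arrays was SKP1 (0.59), named after its value was seen, an adaptor of SCF ubiquitin ligases.

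**Figure D4:**
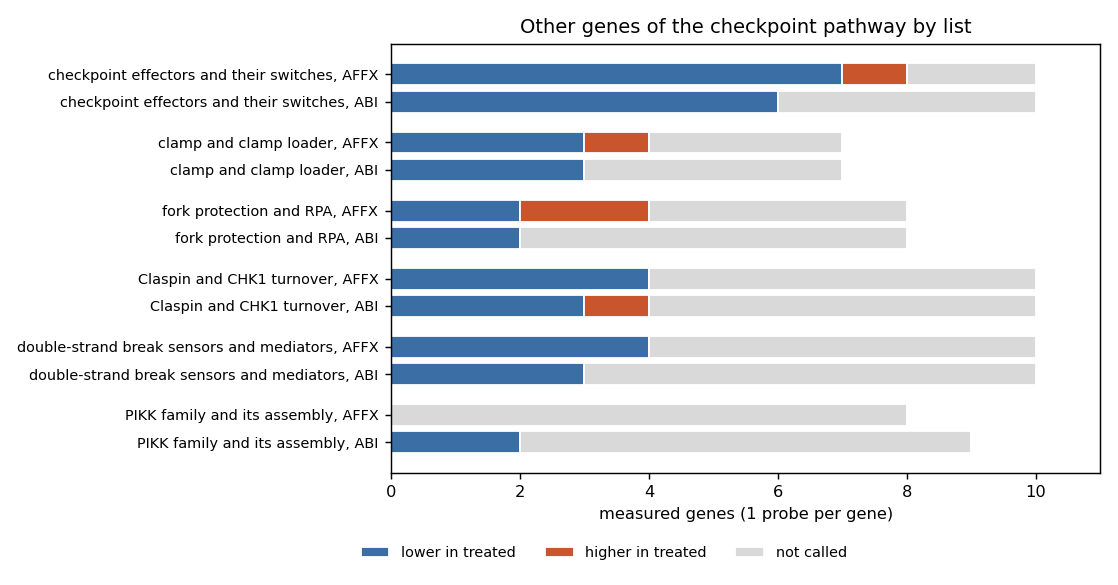
Number of genes called lower, called higher and not called in 6 lists of the checkpoint pathway, on AFFX and ABI. The x axis counts the measured genes of each list. The bars of lower genes are longest for the effectors and their switches, with 7 of 10 on AFFX and 6 of 10 on ABI, and that of the PIKK family on AFFX has none.

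The clamp and its loader, next to RAD17 and RAD1, had 3 of 7 genes lower on both platforms. RFC4, a small loader subunit, fell by 2.42-fold on AFFX (log2 change -1.27 ± 0.09) and 2.70-fold on ABI (-1.44 ± 0.13). RFC3, another subunit, fell by 1.75 and 1.91-fold (-0.80 and -0.93). RAD9A, the clamp subunit that TOPBP1 binds, changed by -0.77 ± 0.12 on AFFX. It was called lower on ABI too, from 0.58 in control to -1.86 in treated, which lies below the median leukocyte marker, so no fold is given, and the call was lost without control replicate 3 (adjusted p = 0.052). RFC2 and RFC5 were not called. The only higher call, HUS1B on AFFX (0.66), a paralog of HUS1, is named after its value was seen.

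Among the checkpoint effectors and their switches 7 of 10 genes were lower and 1 higher on AFFX, and 6 of 10 were lower on ABI. PPM1D, the phosphatase that turns ATM and CHEK2 signalling off, fell by 3.95-fold on AFFX (-1.98 ± 0.09) and 5.70-fold on ABI (-2.51 ± 0.16). WEE1, the kinase that inhibits CDK1, fell by 3.78-fold and 7.56-fold (-1.92 ± 0.08 and -2.92 ± 0.29). The ABI fold of WEE1 is less certain, because its mean went from 2.45 to a dim -0.47. TLK2, a chromatin kinase inhibited by CHEK1, changed by -1.19 and -1.54, and CDKN1A, a CDK inhibitor, by -0.80 and -1.49. These listed genes act on both sides of the checkpoint, since PPM1D ends it and WEE1 and CDKN1A hold the cycle. MDM2, a ubiquitin ligase, had opposite calls: 217373_x_at gave 0.87 on AFFX and 123427 gave -1.15 on ABI. Its AFFX value rests on the probe set chosen, because the brightest, 225160_x_at, gave -1.11. The choice itself moved, to a value of -1.22 without treated replicate 2, -1.41 when centred on ribosomal protein genes and -1.73 on hybridisation controls, while without control replicate 3 the chosen probe set gave 0.41 and no call. On ABI the probe 105398 gave 3.40 (adjusted p = 0.0026), so MDM2 has no single direction in these data.

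In the list of CLSPN and CHEK1 turnover, 4 of 10 genes were lower on AFFX and 3 of 10 on ABI. CUL1, the scaffold of SCF ubiquitin ligases, fell by 2.36 and 2.76-fold (-1.24 and -1.46). PLK1, the mitotic kinase that marks CLSPN for destruction, changed by -1.13 ± 0.08 and -1.47 ± 0.26. FBXW11, an F-box protein of the same ligase, changed by -0.88 ± 0.10 and -0.64 ± 0.12. The ABI calls of the last 2 were fragile: that of PLK1 was lost without any single control array or treated replicate 3 (-1.32 to -1.55, adjusted p 0.051 to 0.054), and that of FBXW11 was lost without any single array but treated replicate 2 (-0.60 to -0.66, adjusted p 0.061 to 0.072).

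Fork protection and RPA had 2 of 8 lower on both platforms and RPA1 and RPA3, named after their values were seen, higher on AFFX (0.75 and 0.62). ETAA1, which activates ATR independently of TOPBP1, fell by 2.91-fold on AFFX (-1.54 ± 0.17). It was also called lower on ABI, from 4.03 in control to -0.83 in treated, a level near that of the leukocyte markers, so no fold is given there. TIPIN, a partner of TIMELESS at the fork, changed by -0.70 and -0.996. Among the double-strand break sensors and mediators, 4 of 10 were lower on AFFX and 3 of 10 on ABI. BARD1, the partner of BRCA1, fell by 3.13 and 2.85-fold (-1.65 and -1.51). H2AX, the histone that ATM and ATR phosphorylate, changed by -0.68 and -0.76, but its AFFX change was -0.30 and -0.35 without treated replicates 1 and 3, when the rule could pick another probe set, and its ABI call was lost without any single array but treated replicate 1 (-0.66 to -0.85, adjusted p 0.056 to 0.091). Of the PIKK family, the kinase family of ATM and ATR, and its assembly factors, 0 of 8 measured genes were called on AFFX by limma or by the t-test, although 4 were lower and 2 higher at an unadjusted p under 0.05. TRRAP, TTI2 and TTI1, named after their values were seen, were just under the fold limit there at -0.58, -0.58 and -0.53 with adjusted p of 0.00025 to 0.0015. On ABI 2 of 9 were lower, TTI2 (-1.25 ± 0.12), a factor in PIKK assembly, and TRRAP (-0.66 ± 0.14), a PIKK scaffold without kinase activity. PRKDC and MTOR were not called on either platform. The AFFX probe set standing for PRKDC was dim (3.82, below the leukocyte marker median of 4.22), whereas its ABI probe was brighter than 86.9% of probes.

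Next to the kinases that were not called, the genes with the most similar pair of changes on the 2 platforms were looked up among the 16186 shared genes, by the distance between the pairs of log2 changes. For ATR (-0.37, -0.43) these were RTF1 (-0.37, -0.43), CARD8 (-0.38, -0.44) and WIPI1 (-0.37, -0.42). For CHEK2 (-0.09, -0.09) they were SPAG1 (-0.08, -0.09), COPB1 (-0.08, -0.08) and NEK8 (-0.09, -0.09). For ATM (0.17, -1.15), read through its dim probes, they were STK38L (0.17, -1.15), ZFP14 (0.18, -1.14) and ETS2 (0.17, -1.16). The distances were 0.0039 to 0.016 log2, smaller than the SE of any of these changes. That RTF1 lay near ATR rests on the probe set chosen, because its brightest AFFX probe set gave -0.66 (limma adjusted p = 0.0014). CHEK1 has no ABI value and no such pair.

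Several of these genes lie head to head with another gene, so that both are transcribed away from a shared stretch of DNA. Neighbours were chosen after the members' values and before their own were seen, as protein-coding genes on the opposite strand whose start lies within 1000 bases. By RefSeq on GRCh38.p14, ATM lies 429 to 687 bases from NPAT, CHEK2 212 to 861 bases from HSCB, RAD1 207 bases from BRIX1, RAD17 298 bases from AK6 and TAF9, which share a start, and TOPBP1 57 bases from a start of TF. DNA between the starts of 4 pairs is shown because both genes of a pair begin there, and the values of the pair are given after it. For ATM only the 250 bases next to it are given, which leaves out the rest of the way to NPAT. The stretches lie outside the annotated ends of both genes of the pair and are written 5′ to 3′ on the strand of the checkpoint gene, ending just before it, with capitals for the motifs found (GGGCGG, the SP1 GC box, and CCAAT, also as its reverse complement).
ATM, with NPAT upstream, chr11:108222817-108223066 (+): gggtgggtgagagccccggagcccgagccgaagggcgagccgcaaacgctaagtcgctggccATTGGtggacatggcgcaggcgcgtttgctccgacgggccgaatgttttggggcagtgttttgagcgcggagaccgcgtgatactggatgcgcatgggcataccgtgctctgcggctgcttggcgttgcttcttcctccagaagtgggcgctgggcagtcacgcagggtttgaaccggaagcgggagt
CHEK2, with HSCB upstream, chr22:28741835-28742031 (-): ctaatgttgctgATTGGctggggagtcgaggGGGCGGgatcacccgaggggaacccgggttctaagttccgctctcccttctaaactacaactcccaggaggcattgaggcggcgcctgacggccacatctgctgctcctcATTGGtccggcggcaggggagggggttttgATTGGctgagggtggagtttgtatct
RAD1, with BRIX1 upstream, chr5:34915505-34915710 (-): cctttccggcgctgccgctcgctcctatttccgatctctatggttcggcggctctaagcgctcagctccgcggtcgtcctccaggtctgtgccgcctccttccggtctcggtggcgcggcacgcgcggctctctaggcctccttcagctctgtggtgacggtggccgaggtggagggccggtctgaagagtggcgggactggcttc
TOPBP1, with TF upstream, chr3:133661942-133661997 (-): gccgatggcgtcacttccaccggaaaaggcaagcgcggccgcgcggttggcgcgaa

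The 250 bases next to ATM hold 1 CCAAT box, the rest towards NPAT not being searched. The stretch of CHEK2, 197 bases, holds 3 CCAAT boxes and 1 GC box. Those of RAD1 (206 bases) and TOPBP1 (56 bases) hold none of the words searched. G and C make up 59.9% to 69.6% of the 4 stretches. Over the 250 bases before each start, 15 windows of 9 of the genes (HUS1 is not in the table), both strands were searched for 7 motifs. The GC box was in 10 windows of 8 genes and CCAAT in 11 windows of 6 genes, against 42.6% and 32% of 35093 windows of all genes. TATAAA, the TATA box, was in 1 window, of RAD17 (10.7% of all windows). The E2F words TTTCGCGC, TTTGGCGC, TTTCCCGC and TTTGCCGC (2.8% of all windows), the ETS core CCGGAAGT (3.4%), the CRE TGACGTCA (1.6%) and the E-box CACGTG (6.3%) were in none. No match overlapped another in the printed stretches. Windows of 1 gene overlap each other, and these are matches of letters only.

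The neighbours were called with the checkpoint gene in some pairs and not in others. NPAT, which activates histone genes at the entry to S phase, read 7.33, 7.07 and 6.87 in control and 4.62, 4.72 and 5.17 in treated arrays at 209798_at, a log2 change of -2.25 ± 0.15 or 4.77-fold (limma adjusted p = 8.42e-07). On ABI it read 2.38, 2.28 and 2.24 against -0.22, -0.54 and -0.56, a change of -2.74 ± 0.15 or 6.67-fold. The treated ABI values were dim, so that fold is less certain. Its probe set 211584_s_at changed by -0.88 and the dim 211585_at by 0.37, the latter not called. ATM, on the other side of the stretch, had no call. The difference between the changes of 2 genes was not tested.

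BRIX1, a ribosome assembly factor, changed by -0.86 ± 0.11 on AFFX (8.24, 8.06 and 8.07 against 7.19, 7.47 and 7.13), beside -0.79 to -0.93 for RAD1, and by -1.37 ± 0.13 on ABI, beside -0.71. AK6, an adenylate kinase-like protein, read 9.49, 9.28 and 9.31 in control and 7.68, 7.87 and 7.76 in treated AFFX arrays, a change of -1.59 ± 0.09, beside -1.20 to -1.38 for RAD17. HSCB, a cochaperone of iron-sulfur cluster assembly, gave -0.02 on AFFX and -0.17 on ABI, not called, as was CHEK2. TF (transferrin) was not called at any of 4 AFFX probe sets (0.04 to 0.28) or 3 ABI probes (-0.54 to 0.10), whereas TOPBP1 fell on both. The ABI control means of TF were -1.33, -1.27 and -2.16, below the median leukocyte marker probe (-1.06), where a fall would be hard to see. On AFFX 203400_s_at and 220109_at were dim too (3.59 and 2.61 in control, below 4.22), while 214063_s_at and 214064_at read 5.08 and 7.32. TAF9 has only probes that are also annotated to AK6 and so has no value, and AK6 was read on AFFX alone. Of the 5 pairs with values, RAD1 with BRIX1 (both platforms) and RAD17 with AK6 (AFFX) had both genes lower, CHEK2 with HSCB neither, and ATM with NPAT and TOPBP1 with TF 1 of the 2, TF being dim at most of its probes. Over all probes, 8.95% were lower on AFFX and 10.1% on ABI. The share of all head-to-head pairs with both genes lower was not counted, and a link between the genes of a pair was not tested.

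**Figure D5:**
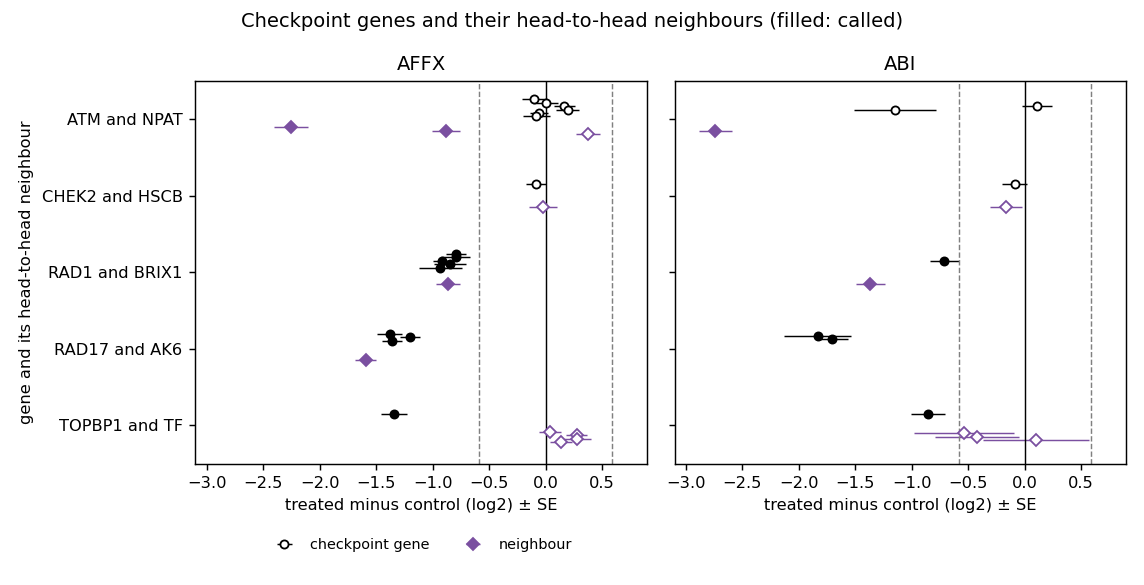
Log2 change, treated minus control, of checkpoint genes (circles) and their head-to-head neighbours (diamonds) on AFFX (left) and ABI (right). Each point is a probe, lines are ± SE from limma, filled points passed the test and dashed lines mark 1.5-fold. NPAT lies at -2.25 and -2.74 while the ATM circles are open, and the filled circles of TOPBP1 stand apart from the open diamonds of TF. The ABI probes of TF are dim.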

How the data were processed

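Gene expression in A2780 cells was read on 6 AFFX and 6 ABI arrays. On AFFX the authors deposited log2 signals per probe set, made by RMA (version not stated) with quantile normalization. On ABI the authors deposited linear intensities after global median normalization, whose scale is not stated and which were turned to log2 here. No detection flags were used. Gene names came from the platform annotation, updated by Entrez Gene ID through RefSeq. Of the tested probes, 41091 on AFFX and 21089 on ABI stand for 1 gene, 1801 and 563 for several, and 11721 and 11444 for none. The 62 control probe sets of AFFX were left out.

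Each platform was fitted on its own with limma 3.58.1 (R 4.3.3) as an unpaired comparison of the conditions, and p-values were adjusted by Benjamini-Hochberg across every probe, those with several genes or none included. Arrays were grouped by the condition in their labels. For lists and for the platform x condition interaction, the probe of lowest p in the methods' t-test (equal variances) stood for each gene, so these changes lean towards larger values. Probe sets of a gene were compared through their difference from its brightest one. No arrays were identical, and precision is limited by how many there are. The replicate numbers were not taken to pair the arrays, which are parts of 1 RNA pool per condition. Correlations of same-numbered deviations from the group means were 0.0746, 0.00403 and 0.327 on AFFX and 0.0342, -0.00667 and 0.0717 on ABI. Those of unlike numbers ran from -0.339 (control 1, treated 3) to 0.324 (control 1, treated 2) on AFFX. On ABI they ran from -0.0620 to 0.0270. These values do not settle whether the numbers carry a pairing.

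The members and lists were chosen with earlier results of these data known. Named genes are all members, up to 4 genes of each list with the same call on AFFX and ABI, genes called in opposite directions, the 3 genes nearest to each kinase by their pair of changes, markers, and ACTB and GUSB, and the text says where a gene was named after its value was seen. The alternatives were the replicate number as a block, leaving out each array, the t-test, no fold limit or 2-fold, leaving out the dimmest 40% of probes, centring on ribosomal protein genes, array medians or hybridisation controls, quantile normalization or log2(signal + 1) on ABI, the brightest probe per gene, and the mean of a gene's probe sets as reference. The fits were tested on simulated data. Promoter sequences are RefSeq's on GRCh38.p14, and 9 of the 10 members had one.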

Additional observations from a re-analysis of the deposited data

How the results depend on the processing

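Among the single probes of the members, none of the called values turned its sign under any alternative. The replicate number was used as a block as a check, although the numbers were not taken to pair the arrays. The AFFX counts then stayed at 10 probe sets and 4 genes lower. On ABI 2 probes in place of 4, 1 member gene in place of 3 and 0 listed genes in place of 1 (higher) passed. There TOPBP1 and RAD1 lay at limma adjusted p of 0.055 and 0.068. Between platforms TOPBP1 then differed (adjusted p = 0.048) in place of ATM (0.14). Leaving out 1 array gave 10 to 11 lower AFFX probe sets in 4 to 5 genes, 2 to 4 lower ABI probes in 1 to 3 genes, 2 to 4 listed genes higher on AFFX and 0 to 1 on ABI, 2 to 4 differences between probe sets and 0 to 1 member that differed between platforms. With a fold limit of 2, the AFFX counts were 4 probe sets and 2 genes lower, with 10 listed genes lower and 0 higher, and the ABI counts 2 probes and 1 gene lower and 0 listed genes higher. With no fold limit, 2 AFFX probe sets and 13 listed genes were higher. By the methods' t-test, 7 AFFX probe sets stayed lower, CHEK1 205394_at (adjusted p = 0.052) and RAD1 228535_at (0.051) and 235253_at (0.092) missed, and 0 members differed between platforms. Centring on ribosomal protein genes gave 8 lower ABI probes in 7 genes, 34 listed genes lower and 0 higher on ABI, and 0 listed genes higher on AFFX. Centring on hybridisation controls gave 17 lower AFFX probe sets and 0 listed genes higher. Under both, ATR and CLSPN probe sets and further CHEK1 probe sets passed as lower, whereas centring on array medians changed no call of a member. Quantile normalization gave 2 higher listed genes on ABI, lost RAD1 by the fold limit (-0.53) and added ATM 220575 (-1.35). With the brightest probe per gene, 2 listed genes were higher on AFFX and 0 members differed between platforms. Against the mean of the gene's probe sets, 0 differences were called. Results that turned were MDM2 on AFFX (main value 0.87), at -1.11 with the brightest probe set, -1.41 and -1.73 under the centrings on ribosomal protein genes and hybridisation controls and between -1.22 and 0.88 without 1 array, and the platform difference of ATM (-1.31), at 0.17 with the brightest probes and between -1.65 and 0.030 without 1 array. The cause of these shifts was not tested, except that both turned where another probe was taken. Without detection flags, dim probes limit what can be said of ATM on ABI and of CLSPN on ABI.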
